A study of Mus musculus with 9 samples.

Results

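Messenger RNA of 10 tubulin genes was followed in fresh mouse oocytes and in oocytes frozen by 1 of 2 protocols. The genes were 7 beta tubulin isotypes (Tubb5, Tubb2a, Tubb2b, Tubb3, Tubb4a, Tubb4b and Tubb6) and 3 alpha tubulin isotypes (Tuba1a, Tuba1b and Tuba1c), chosen by name from the 26358 genes of the deposited table. All 10 were measured, and all 10 passed the filter on low counts. The series holds 9 libraries, 3 of fresh oocytes and 3 for each freezing protocol. The first protocol, cryopreservation-1, combined EG and DMSO at 15% each with 0.5 M sucrose and froze the oocytes on a cryotop, a thin strip. The second, cryopreservation-2, combined EG at 17.5% with 1 M trehalose and PVA/Fe3O4/GO nanoparticles and froze them in straws. Carrier, solutes and nanoparticles changed together, so each comparison is between whole protocols. The labels name the cells only as oocytes and give no strain, age or stage of maturation.

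Alpha and beta tubulin pair into the dimer from which microtubules are built, and in the mature oocyte most of those microtubules form the meiotic spindle. Cooling takes microtubules apart, which is why the spindle is watched in oocyte freezing. Mammals make each tubulin from several genes whose proteins differ mainly in the acidic tail at the carboxyl end. Free tubulin dimer controls the life of its own mRNA: when dimer accumulates, TTC5 binds the first residues of the nascent chain and the mRNA being translated is degraded.

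Those first residues are the feature that joins the 2 families, so the starts of 9 coding sequences are shown, from the GENCODE transcripts of GRCm38. Capitals mark the first 4 codons. All 7 beta genes spell the residues MREI and all 3 alpha genes MREC, with different codons for the same residue in several genes.

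Tubb5 coding bases 1 to 24: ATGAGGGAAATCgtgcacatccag
Tubb2a coding bases 1 to 24: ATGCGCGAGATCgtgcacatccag
Tubb2b coding bases 1 to 24: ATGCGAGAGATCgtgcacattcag
Tubb3 coding bases 1 to 24: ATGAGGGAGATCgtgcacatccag
Tubb4a coding bases 1 to 24: ATGCGGGAAATCgtgcacctgcaa
Tubb4b coding bases 1 to 24: ATGAGGGAGATCgtgcacctgcag
Tuba1a coding bases 1 to 24: ATGCGTGAGTGCatctccatccat
Tuba1b coding bases 1 to 24: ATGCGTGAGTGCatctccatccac
Tuba1c coding bases 1 to 24: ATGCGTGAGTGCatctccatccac

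The other end of the coding sequence holds the isotype tail. It is shown for 5 beta genes whose levels the results turn on, with the stop codon in capitals. Tubb2a and Tubb2b read almost alike there, while Tubb3 and Tubb5 have endings of their own.

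Tubb5 coding bases 1288 to 1335: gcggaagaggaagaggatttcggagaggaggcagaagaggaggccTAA
Tubb2a coding bases 1291 to 1338: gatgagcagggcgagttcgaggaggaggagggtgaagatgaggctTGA
Tubb2b coding bases 1291 to 1338: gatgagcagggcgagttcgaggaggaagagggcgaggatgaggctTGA
Tubb3 coding bases 1306 to 1353: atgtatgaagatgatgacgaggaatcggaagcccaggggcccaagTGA
Tubb4b coding bases 1291 to 1338: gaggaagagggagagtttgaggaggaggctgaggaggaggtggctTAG

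All 10 transcripts had 4 exons, and coding lengths ran from 1335 to 1356 bases. On GRCm38, Tubb2a (chr13:34074274-34078007) and Tubb2b (chr13:34126748-34130466) lie 48740 bases apart on the minus strand. The 3 alpha genes form a cluster on chromosome 15, with 15271 bases between Tuba1b (chr15:98931425-98934565) and Tuba1a (chr15:98949837-98953703) and 76187 between Tuba1a and Tuba1c (chr15:99029891-99038110). The remaining beta genes stand alone: Tubb3 at chr8:123411424-123422015, Tubb4b at chr2:25222160-25224702, Tubb6 at chr18:67390717-67402749, Tubb5 at chr17:35833921-35838306 and Tubb4a at chr17:57080066-57087782.

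How far a count belongs to 1 gene depends on how much of its transcript occurs unchanged elsewhere. Each transcript was therefore read in windows of 100 bases, and each window was looked up in all other annotated transcripts on both strands. No window of Tubb3, Tubb5, Tubb4a or Tubb6 was found in another gene. Of the Tubb2a windows, 36.9% were shared, nearly all with Tubb2b, and 27.7% of the Tubb2b windows were. For Tubb4b the share was 30.6%, most of it with the processed pseudogene Tubb4b-ps1 (27.4%). The alpha genes were the least separable of the 10, at 73% for Tuba1b, 65.8% for Tuba1a and 53.4% for Tuba1c. Their windows recurred in one another and in processed pseudogenes such as Gm17383, Gm3226 and Gm14150. Over the coding sequence Tubb2a and Tubb2b were 96.5% identical, with an identical run of 551 bases. Tuba1a and Tuba1b were 98.3% identical, Tuba1b and Tuba1c 97.9%, and the other 20 beta pairs 80.4% to 85.9%.

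**Figure D1:**
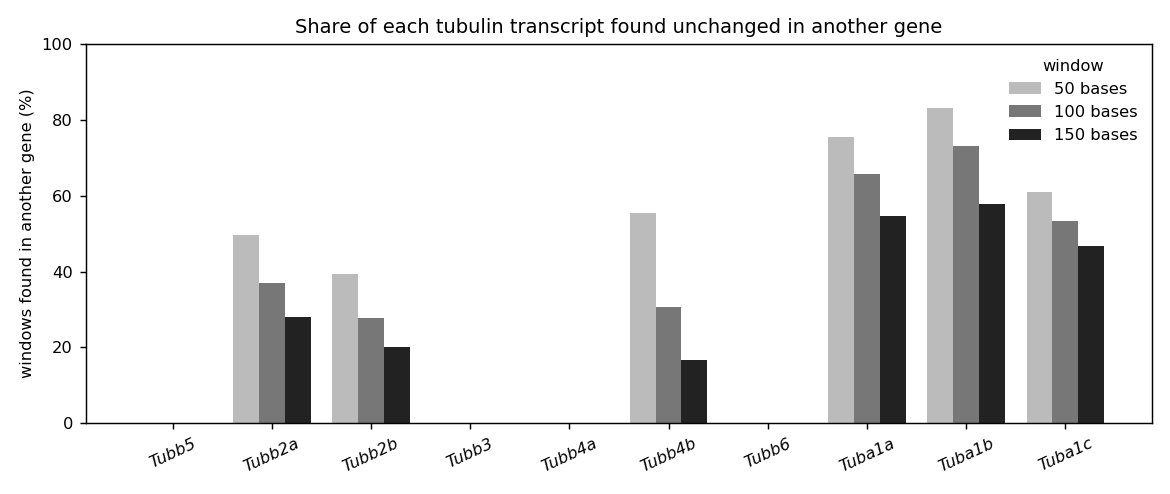
Share of windows (%) of each tubulin transcript found unchanged in another gene, for windows of 50, 100 and 150 bases (bars from light to dark). Tubb3 and Tubb6 stay at 0 for every window size, whereas the 3 alpha genes are at 46.7% or more.

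In the 3' untranslated regions of Tubb2a and Tubb2b, no window of 100 bases was found in another gene. Even where their coding sequences part most, the differences are scattered. The stretch of 100 coding bases with the most differing positions is shown for Tubb2a and Tubb2b, and capitals mark the 15 positions at which they are not alike.

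Tubb2a coding bases 69 to 168: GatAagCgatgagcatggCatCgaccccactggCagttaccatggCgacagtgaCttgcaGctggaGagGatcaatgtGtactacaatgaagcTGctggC
Tubb2b coding bases 69 to 168: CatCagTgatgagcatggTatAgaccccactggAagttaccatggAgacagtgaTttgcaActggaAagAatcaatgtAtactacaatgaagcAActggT

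Several genes also overlap a neighbour. Tubb3 lies within an intron of Gm20388 on the same strand, Tuba1a and Tuba1b inside Gm49450 on the same strand, Tubb4b opposite Fam166a, and Tuba1b opposite the antisense gene Gm41396. Gm49450 had at most 1 count and Fam166a at most 17 in any library, and Gm41396 had 20 to 50. Gm20388 was not analysed here, and its annotated transcript shares no window with Tubb3. The setting for reads that map to several places is not given in the sources used here, so the levels of the 6 genes with shared windows are uncertain.

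Total counts were 73899130 to 80100460 in the fresh libraries, 64276885 to 80877288 after cryopreservation-1 and 49337232 to 51369012 after cryopreservation-2. The tubulin counts were large beside counting error for 9 of the 10 genes, and only Tubb4a, at 0 to 128 counts, was near the floor of 3 counts that a count of 0 allows. Oocyte markers such as Gdf9 and Zp3 took 1.04% to 1.88% of counts, and all 10 were detected in every library. Because several tubulins are known from neurons and cilia, markers of those cells were read too. Neuronal markers took 0.0024% to 0.00393% of counts and ciliated-cell markers 0.000742% to 0.00185%. Without Dnah11, their largest gene, ciliated-cell markers took 0.0003% to 0.000587% in fresh and 0.000258% to 0.000391% after cryopreservation-1. After cryopreservation-2 they took 0.000635% to 0.000873%, above both. Neuronal markers without Syt1 overlapped, at 0.000281% to 0.000624%, 0.000346% to 0.000429% and 0.000256% to 0.000514% in the same order. Among the neuronal genes the synaptic vesicle gene Syt1 was at 1088 to 2840 counts, Map2 at 103 to 402, Rbfox3 at 10 to 134, Snap25 at up to 40 and the neurofilament gene Nefl at up to 9. Cumulus and granulosa cell markers took 0.0946% to 0.125% in fresh, 0.103% to 0.126% after cryopreservation-1 and 0.113% to 0.176% after cryopreservation-2. Serpine2 alone held 91.8% to 96.6% of those counts, and without it the ranges were 0.00702% to 0.00794%, 0.0068% to 0.00829% and 0.00476% to 0.00865%. Stroma and endothelium markers without Pecam1 took 0.00184% to 0.00234% in fresh, 0.00218% to 0.00274% after cryopreservation-1 and 0.00399% to 0.00426% after cryopreservation-2. With Pecam1 the ranges overlapped, as did those of immune and blood markers. The part of these markers in the results below was not tested. Levels are relative to all poly(A) mRNA of a library, so fewer cells and less RNA per cell cannot be told apart.

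In fresh oocytes Tubb3 stood far above the other isotypes, although it is best known as the neuronal class III beta tubulin. Its level was 242 ± 48.0 FPKM (SD, n = 3), a measure of reads per length of gene that allows genes to be compared. Tuba1c followed at 57.8 ± 13.2 FPKM and Tubb4b, a broadly expressed isotype also used in cilia, at 30.0 ± 7.88. Tubb6, Tubb2a and Tuba1b lay together at 12.8, 12.3 and 11.8 FPKM, and the libraries of neighbours in this trio overlapped. Tuba1a came next at 6.41 FPKM. Tubb2b and Tubb5 did not separate at 1.42 and 1.38 FPKM, and Tubb4a, a brain isotype, was lowest at 0.209. The order was the same in cryopreservation-1. In cryopreservation-2 Tubb3 was still first by its mean, at 153.9 ± 69.3 FPKM, followed by Tubb4b (79.4 ± 25.4), Tuba1c and Tubb2a. The ranges of these 4 over the libraries overlapped from one to the next, but within each of the 3 libraries the order was the same.

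Cryopreservation-2 against fresh was the comparison with the most tubulins called, though Tubb3, the most abundant beta isotype, was not among them. By the edgeR quasi-likelihood test with Benjamini-Hochberg adjustment over 17545 genes, 5 of the 10 tubulins were higher, all of them beta isotypes, and 0 were lower. Over all genes 3.18% were called higher, 2.2% lower and 5.38% in either direction. The median log2 fold change was 1.26 over the 10 tubulins and -0.06 over all genes tested.

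Tubb2a, an isotype abundant in neurons and present in many other cells, rose the most among those called. Its level was 23.3, 27 and 20.9 TMM-scaled CPM (counts scaled to library size) in fresh replicates 1 to 3, and 80.8, 122.5 and 125.3 in the cryopreservation-2 libraries. Every frozen library was far above every fresh one, and the frozen libraries spread more widely. Tubb2a rose 4.62-fold (log2 2.21, SE 0.30, adjusted p = 0.00611).

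Tubb2b, its near copy, was at 5.14, 3.67 and 2.75 CPM in fresh and 11.8, 17.8 and 20.3 CPM in cryopreservation-2. The groups did not overlap, and replicate 1 was again the lowest of the frozen libraries. It rose 4.31-fold (log2 2.11, SE 0.38, adjusted p = 0.0161). The sum of both copies went from 27.6 ± 3.57 to 126.1 ± 29.2 CPM (SD, n = 3). That sum does not depend on how reads were split between the copies. It does depend on whether shared reads were dropped or counted for both genes, which is not known.

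Tubb5, the isotype typical of dividing cells, was at 6.17, 4.73 and 5.44 CPM in fresh and at 15.8, 17.7 and 13.8 CPM in cryopreservation-2. All frozen libraries lay above all fresh ones, with little spread within either group. It rose 2.89-fold (log2 1.53, SE 0.37, adjusted p = 0.0417).

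Tubb4b was at 75.6, 97.4 and 52.2 CPM in fresh and at 124.3, 190.5 and 220.1 CPM in cryopreservation-2. The spread within each group was wide, and the groups still did not overlap. It rose 2.38-fold (log2 1.25, SE 0.29, adjusted p = 0.0376). Its pseudogene Tubb4b-ps1 held 2.08% to 3.79% as many counts as Tubb4b in the 9 libraries. With Tubb4b-ps1 and Tubb4b-ps2 added, the level was 77.0 ± 23.2 CPM in fresh and 184.5 ± 50.8 CPM in cryopreservation-2.

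Tubb6, a broadly expressed isotype, was at 35.6, 35.7 and 40.2 CPM in fresh and at 78.2, 102.5 and 90.4 CPM in cryopreservation-2. The fresh libraries were close to one another, and the frozen ones lay clear above them. It rose 2.43-fold (log2 1.28, SE 0.25, adjusted p = 0.0205).

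Most of these calls did not hold when single libraries were left out. Of the 5, only Tubb2a stayed past the threshold when each of the 9 libraries was left out in turn, with adjusted p from 0.0061 to 0.035. Tubb2b lost its call without fresh replicate 3 (0.0615) and without cryopreservation-2 replicate 3 (0.059). Tubb6 lost it in 5 of 9 omissions (up to 0.0659), namely without any 1 of the fresh libraries or of cryopreservation-2 replicates 2 and 3. Tubb4b lost it in 6 of 9 (up to 0.115), all but fresh replicate 2, cryopreservation-1 replicate 3 and cryopreservation-2 replicate 1, and also when only the 2 groups compared were fitted (0.0683). Tubb5 lost it in 8 of 9 (up to 0.117), all but cryopreservation-1 replicate 3, and also with no filter on low counts (0.0531). The fold changes themselves moved little over these omissions, between 2.12 and 2.44 on the log2 scale for Tubb2a and between 1.44 and 1.63 for Tubb5. With the library of each group that had the fewest detected genes left out, an alternative chosen after the data were seen, 3 calls held (Tubb2a, Tubb2b and Tubb4b) and Tubb5 (0.0588) and Tubb6 (0.0563) missed the threshold.

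**Figure D2:**
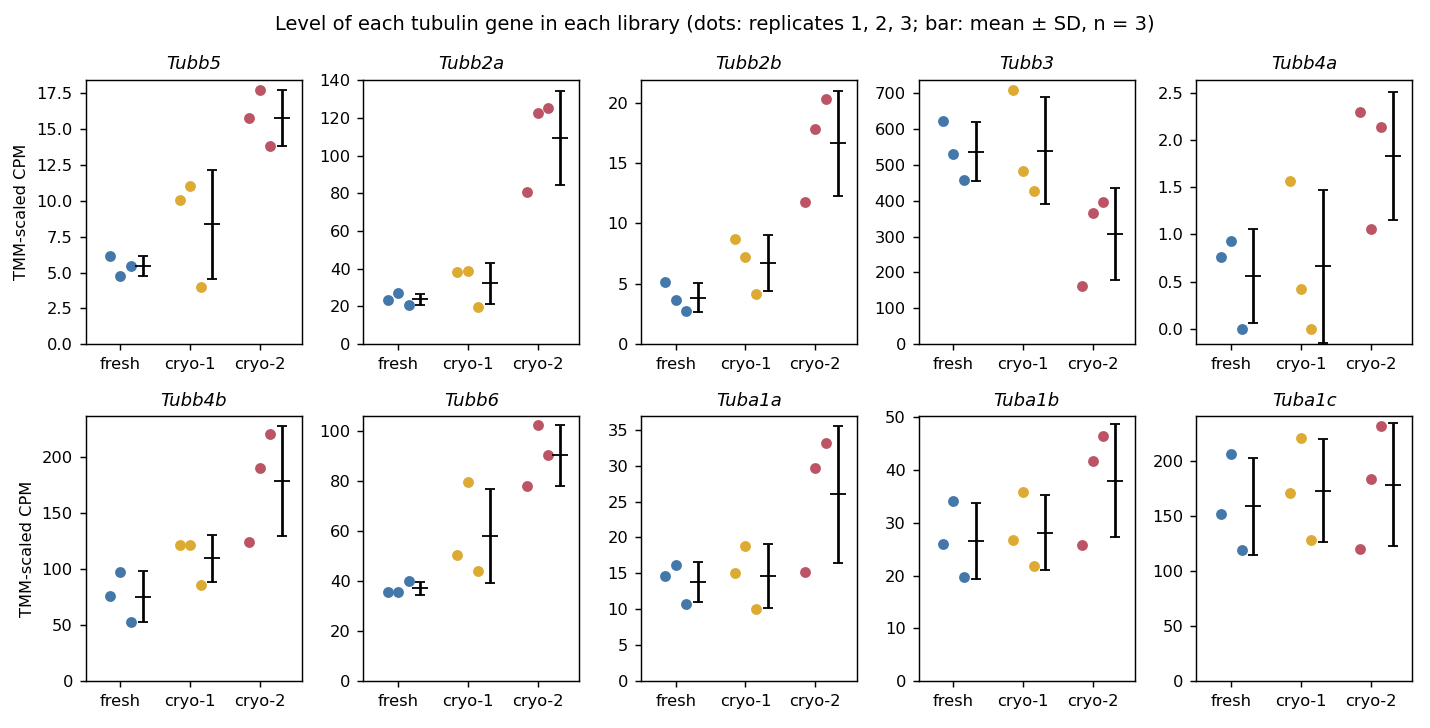
TMM-scaled CPM of each tubulin gene in every library (dots, replicates 1, 2 and 3 from left to right) with the mean ± SD of the 3 libraries (bars); cryo-1 and cryo-2 stand for the freezing protocols, and each panel has its own scale. For Tubb5, Tubb2a, Tubb2b, Tubb4b and Tubb6 all cryo-2 dots lie above all fresh dots, and for Tubb3 they lie below.

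The other beta isotypes did not pass the test. Tubb3 was at 622.6, 528.9 and 458.8 CPM in fresh and at 161, 366.4 and 395.4 CPM in cryopreservation-2. Every frozen library was below every fresh one, and replicate 1 was far below the other frozen libraries. The log2 fold change was -0.80 (SE 0.33, adjusted p = 0.186), and it was -0.44 (adjusted p = 0.326) without that library. With offsets for GC content and gene length it was -0.91 and passed the threshold (adjusted p = 0.0202). Tubb4a was at 0.757, 0.935 and 0 CPM in fresh and at 2.3, 1.06 and 2.13 CPM in cryopreservation-2, with a log2 fold change of 1.70 and a standard error of 1.59 (adjusted p = 0.608). Counting libraries alone, 6 of the 10 tubulins had all cryopreservation-2 libraries above all fresh ones (15.1% of all genes did) and 1 had them below (12.4%).

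No alpha isotype passed the test in this comparison. Tuba1c, the most abundant of them, was at 152, 206 and 118.7 CPM in fresh and at 119.9, 184 and 231.6 CPM in cryopreservation-2. These ranges lay over one another, and the log2 fold change was 0.17 (SE 0.30, adjusted p = 0.815). Tuba1b, the ubiquitous alpha isotype, differed by 0.51 on the log2 scale (SE 0.31, adjusted p = 0.375). Tuba1a, the main alpha isotype of young neurons, went furthest, from 14.6, 16.1 and 10.7 CPM in fresh to 15.2, 29.7 and 33.2 CPM in cryopreservation-2. Replicate 1 of the frozen group lay among the fresh libraries and the other two lay above them (log2 0.91, SE 0.35, adjusted p = 0.158). Summed over the 3 genes, the level was 199.3 ± 53.9 CPM in fresh and 242.5 ± 76.0 CPM in cryopreservation-2 (SD, n = 3).

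**Figure D3:**
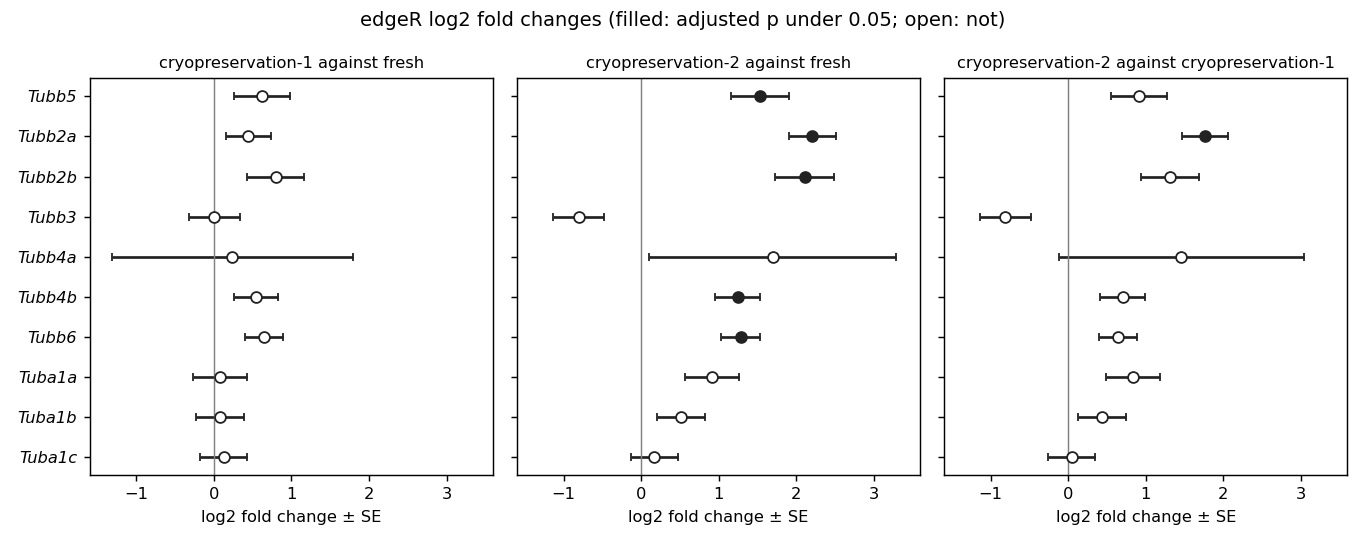
Log2 fold change ± SE of each tubulin gene in the 3 comparisons, from edgeR; filled dots have an adjusted p under 0.05. In cryopreservation-2 against fresh 5 beta genes are filled, in cryopreservation-2 against cryopreservation-1 only Tubb2a is, and in cryopreservation-1 against fresh none is.

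After cryopreservation-1 no tubulin passed the edgeR test against fresh, and the same holds for all 17545 genes (0% called). The unadjusted p was under 0.05 for 1 tubulin and for 828 genes. DESeq2 and limma also called 0 of the tubulins, while DESeq2 called 43 of all genes. The 1 tubulin was Tubb6, at 50.6, 79.6 and 44.1 CPM against 35.6, 35.7 and 40.2 in fresh. All its frozen libraries lay above the fresh ones, as did those of 6.37% of all genes (3.72% had them wholly below) (log2 0.65, SE 0.24, unadjusted p = 0.0242, adjusted p = 1). The labels do not state that the replicate numbers pair these 2 groups. Read by number, 5 tubulins, Tubb2b, Tubb4b, Tubb6, Tuba1b and Tuba1c, were higher in all 3 same-numbered pairs, as were 17.3% of all genes. None was lower in all 3 pairs (12.3% of all genes). All 10 log2 fold changes were above 0, as were those of 52.1% of all genes, and the medians were 0.34 and 0.02. With RLE factors, DESeq2 or the replicate block 9 were above 0, and without cryopreservation-1 replicate 2 only 7 were. With offsets for GC content and length or without fresh replicate 3, 5 turned below 0. They were Tubb3, Tubb4a and the 3 alpha genes. For Tubb3 the value in the reported fit was 0.0072 (SE 0.33). The beta genes that rose after cryopreservation-2 had log2 fold changes of 0.62 (Tubb5), 0.44 (Tubb2a), 0.80 (Tubb2b), 0.54 (Tubb4b) and 0.65 (Tubb6) here. Both comparisons use the same fresh libraries.

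Set directly against cryopreservation-1, cryopreservation-2 had 1 tubulin higher and 0 lower by the edgeR test, where 1.5% of all genes were called higher, 1.25% lower and 2.75% in all. That gene was Tubb2a, at 38.4, 38.8 and 19.8 CPM after cryopreservation-1 and 80.8, 122.5 and 125.3 after cryopreservation-2. Replicate 3 of cryopreservation-1 was at the fresh level, and the groups did not overlap. Tubb2a was 3.39-fold higher (log2 1.76, SE 0.30, adjusted p = 0.019), a call that was lost in 5 of 9 omissions: any 1 of the cryopreservation-1 libraries, or cryopreservation-2 replicate 2 or 3 (adjusted p from 0.0512 to 0.0754). Tubb2b was 2.48-fold higher and missed the threshold (adjusted p = 0.0857), although it passed in DESeq2 (0.00759) and in limma on log2(FPKM + 1) (0.0427). Tubb5 (log2 0.91, adjusted p = 0.204), Tubb4b (0.70, 0.215), Tubb6 (0.64, 0.186) and Tuba1a (0.83, 0.226) were higher without passing. Tubb3 had a log2 fold change of -0.81 (adjusted p = 0.21). The libraries of 4 tubulins lay wholly higher (13.8% of all genes) and those of 1, Tubb3, wholly lower (15.2%). A test of any difference among the 3 groups passed for Tubb2a (adjusted p = 0.008), Tubb2b (0.0283) and Tubb6 (0.0426), where 3.53% of all genes passed.

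The make-up of the beta pool shows these changes on 1 scale. Tubb3 supplied 82.7%, 77.7% and 81.1% of the summed FPKM of the 7 beta genes in the fresh libraries and 77.5%, 68.0% and 75.4% after cryopreservation-1. After cryopreservation-2 it supplied 36.1%, 46.8% and 47.5%, so every library of that group was below every other library. Tubb4b held 10.01 ± 2.44% in fresh and 23.4 ± 1.59% in cryopreservation-2, Tubb2a 4.16 ± 0.517% and 18.9 ± 1.88%, and Tubb6 4.36 ± 0.96% and 10.6 ± 2.6% (SD, n = 3). Tubb2b and Tubb5 were a small part of the pool even then, with means of 1.99% and 1.39%. The summed beta FPKM itself overlapped between the groups, at 300.1 ± 53.0 in fresh, 342.4 ± 78.8 after cryopreservation-1 and 342.5 ± 118.7 after cryopreservation-2. Without Tubb3 the sums were 58.1 ± 8.3, 89.4 ± 20.5 and 188.7 ± 49.4. The 3 alpha genes summed to 76.1 ± 16.97, 86.5 ± 22.3 and 105.0 ± 37.5 FPKM. With the 5 other alpha genes Tuba3a, Tuba3b, Tuba4a, Tuba8 and Tubal3 added, the alpha sums were 178.8 ± 10.6, 214 ± 36.2 and 320.1 ± 27.2. Thus the alpha genes outside the 10 carried more FPKM than the 3 Tuba1 genes did, and Tuba3a is described with the other tubulins below.

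**Figure D4:**
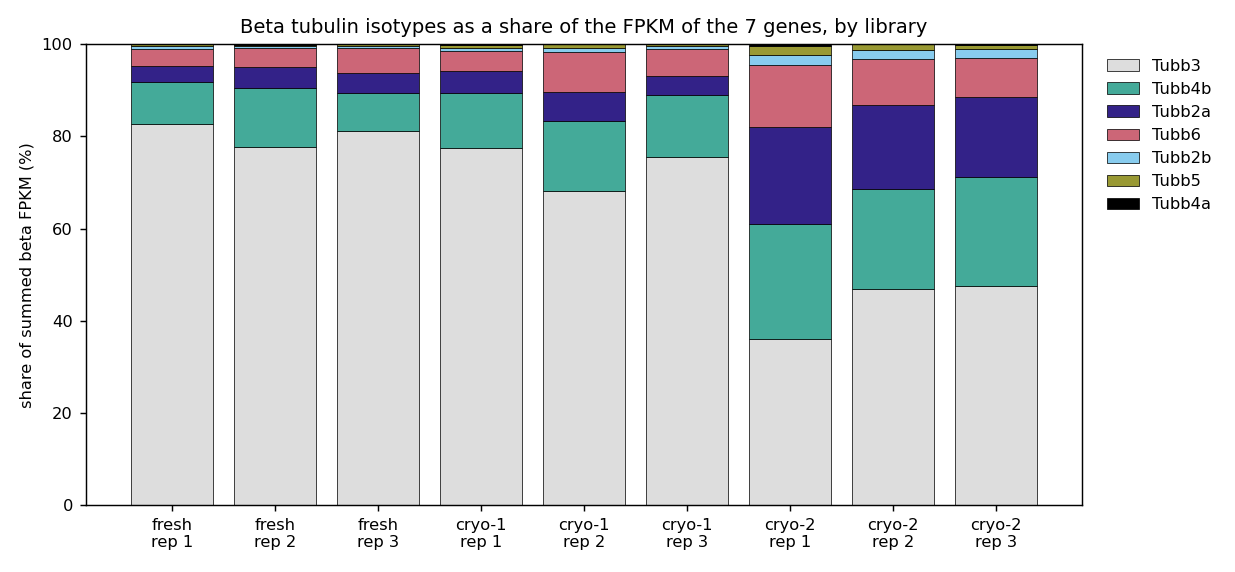
Share (%) of each beta isotype in the summed FPKM of the 7 genes, 1 stacked bar per library; cryo-1 and cryo-2 stand for the freezing protocols. The grey Tubb3 part fills at least 68.0% of each fresh and cryo-1 bar and at most 47.5% of each cryo-2 bar.

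Ratios between the alpha copies varied less within a group than their levels did. Tuba1b held 17.1%, 16.5% and 16.6% as many counts as Tuba1c in fresh and 15.6%, 16.2% and 17% after cryopreservation-1. After cryopreservation-2 the ratio was 21.6%, 22.6% and 20%, above all other libraries. Tuba1a relative to Tuba1c ran from 7.83% to 9.59% in fresh, from 7.81% to 8.83% after cryopreservation-1 and from 12.6% to 16.1% after cryopreservation-2. So replicate 1 of cryopreservation-2, which had fresh-like levels of Tuba1a and Tuba1b, had the ratios of its own group. Tubb2b relative to Tubb2a ran from 13.1% to 22.1% in fresh, from 18.6% to 22.7% after cryopreservation-1 and from 14.5% to 16.2% after cryopreservation-2. The frozen groups did not overlap there, and the fresh libraries overlapped both. Pseudogenes that share alpha windows had few counts beside Tuba1c, which had 6256 to 17104. Gm14150, for example, had 57 to 212 and Gm3226 had 34 to 275. Beside Tuba1a, at 619 to 1991 counts, they were a larger part. In cryopreservation-2 replicate 2, Gm3226 had 275 counts, Gm6682 197 and Gm14150 160, against 1628 for Tuba1a. Gm17383 and the noncoding gene B020010K11Rik each share 32.1% of the Tuba1a windows. Gm17383 had 56, 29 and 82 counts in fresh replicate 3, cryopreservation-1 replicate 3 and cryopreservation-2 replicate 1, where B020010K11Rik had 0. In all other libraries Gm17383 had 0 and B020010K11Rik 75 to 251. How reads were assigned among these copies and the Tuba1 genes was not tested.

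**Figure D5:**
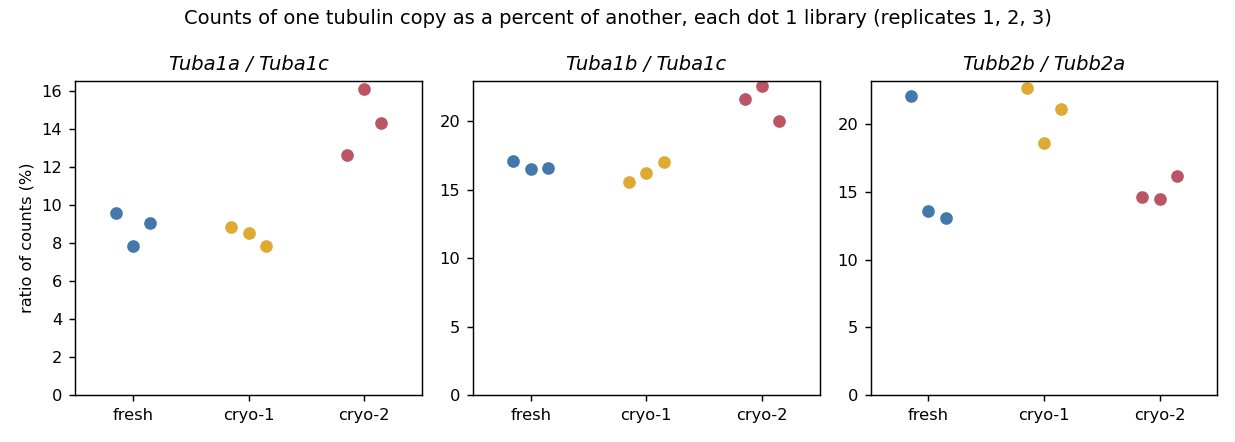
Counts of one tubulin copy as a percent of another in each library (dots, replicates 1, 2 and 3 from left to right); cryo-1 and cryo-2 stand for the freezing protocols. In the panels for Tuba1a and Tuba1b over Tuba1c the cryo-2 dots lie above all others, and for Tubb2b over Tubb2a they lie below all cryo-1 dots, while the fresh dots overlap both.

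The 250 bases before the RefSeq starts were read in the promoters of GRCm38.p6, which held 8 of the 10 genes. Tubb2b and Tubb6 were not matched. Whether transcription had a part in the changes of level was not tested. RefSeq and GENCODE place some starts differently. Of the 250 bases, 202 lay inside the GENCODE gene for Tuba1a, 182 for Tubb4a, 175 for Tuba1b, 129 for Tubb3 and 5 for Tubb5, and 0 for the other 3 genes, so motif matches in those windows are not all upstream of the GENCODE start. Promoter motifs were searched on both strands. The motif CCAAT was in 5 of the 8 windows and in 33.8% of 32851 promoters of the same length. The motif GGGCGG was in 5 of 8 windows and in 32.7% of promoters. The motif TATAAA was in 1 of 8 windows and in 12.4% of promoters. The windows of 3 genes that rose are shown with that of Tuba1c, which did not pass the test, and capitals mark the motifs, spelled as the reverse complement where they lie on the other strand; no match overlaps another in these windows. Tubb4b held 5 CCAAT motifs and 1 GGGCGG, Tubb5 held 2 CCAAT, and Tubb2a held 2 GGGCGG and 1 TATAAA but no CCAAT. Tuba1c held 1 CCAAT. None of the motifs was found in all 3 of the windows from genes that rose.

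Tubb2a chr13:34078009-34078258 (- strand): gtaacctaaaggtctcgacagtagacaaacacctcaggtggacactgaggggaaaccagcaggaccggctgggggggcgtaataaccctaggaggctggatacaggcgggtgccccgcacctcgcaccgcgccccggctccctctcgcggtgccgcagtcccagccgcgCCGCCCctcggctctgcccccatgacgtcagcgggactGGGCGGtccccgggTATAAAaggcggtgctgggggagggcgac
Tubb4b chr2:25224703-25224952 (- strand): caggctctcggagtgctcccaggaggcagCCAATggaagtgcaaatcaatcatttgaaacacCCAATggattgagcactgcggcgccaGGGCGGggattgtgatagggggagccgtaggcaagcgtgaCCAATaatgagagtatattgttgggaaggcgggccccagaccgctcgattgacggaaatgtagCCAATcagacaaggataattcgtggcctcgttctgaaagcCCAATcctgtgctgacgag
Tubb5 chr17:35838302-35838551 (- strand): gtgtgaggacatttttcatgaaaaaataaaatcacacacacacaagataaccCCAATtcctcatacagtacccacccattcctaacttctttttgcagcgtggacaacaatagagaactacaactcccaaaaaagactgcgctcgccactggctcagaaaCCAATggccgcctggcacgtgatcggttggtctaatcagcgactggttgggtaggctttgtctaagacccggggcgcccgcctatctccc
Tuba1c chr15:99029641-99029890 (+ strand): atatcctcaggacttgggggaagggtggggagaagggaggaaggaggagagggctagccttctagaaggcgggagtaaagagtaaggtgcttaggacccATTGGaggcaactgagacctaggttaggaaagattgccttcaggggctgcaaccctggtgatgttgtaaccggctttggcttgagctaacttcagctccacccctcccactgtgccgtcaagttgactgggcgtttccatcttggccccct

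The other tubulin genes and the proteins that act on tubulin were read from lists. Of 16 other tubulin genes tested, 1 was higher in cryopreservation-2 than in fresh by the edgeR test and 0 were lower, where 3.18% of all genes were higher and 2.2% lower. DESeq2 called 4 of the 16 and limma 5. Of all 17545 genes, DESeq2 called 2447 in this comparison and limma on log2(FPKM + 1) called 1792. Their median log2 fold change was 0.43 against -0.06 for all genes. The gene edgeR called was Tuba3a, an alpha isotype known from the testis, at 62.5, 65.3 and 76.5 CPM in fresh and 254.2, 200.5 and 188.1 CPM in cryopreservation-2. It rose 3.15-fold (SE 0.25 on the log2 scale, adjusted p = 0.00918), and it kept its call in all 9 omissions. Of its windows of 100 bases, 12.3% were shared with Tuba3b. In FPKM, Tuba3a went from 37.9 ± 4.66 in fresh to 130.1 ± 14.1 in cryopreservation-2, against 57.8 ± 13.2 and 72.7 ± 26.1 for Tuba1c. The gamma-tubulin ring complex and its partners nucleate microtubules, and 1 of 21 was higher and 0 lower by edgeR, while DESeq2 called 5 and limma 3. The edgeR call was the augmin subunit Haus8 (4.54-fold, SE 0.51 on the log2 scale, adjusted p = 0.0368), a call lost in 6 of 9 omissions (up to 0.11), all but fresh replicate 2, cryopreservation-1 replicate 3 and cryopreservation-2 replicate 1, and also with no filter on low counts (0.0502).

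New tubulin chains are folded by prefoldin, the chaperonin CCT and the tubulin cofactors. Of these 21 genes 3 were higher and 0 lower by edgeR, against 3.18% and 2.2% of all genes. DESeq2 called 10 and limma 9, beside 2447 and 1792 of all 17545 genes. A log2 fold change above 0 was found for 19 of the 21 and for 47.6% of all genes, and the medians were 0.80 and -0.06. Pdcl3, a phosducin-like partner of CCT, was at 21.1, 34.2 and 25.1 CPM in fresh and 117.5, 84.5 and 90.4 CPM in cryopreservation-2. The frozen libraries were all far above the fresh ones, and Pdcl3 rose 3.64-fold (adjusted p = 0.00671). It was also 3.69-fold higher than after cryopreservation-1 (adjusted p = 0.0112), a call lost without cryopreservation-1 replicate 1 (0.0646) or replicate 3 (0.0594). Without the library of each group that had the fewest detected genes, Pdcl3 missed the threshold against fresh (0.0573) and against cryopreservation-1 (0.0706). The prefoldin subunit Pfdn5 rose 2.22-fold (adjusted p = 0.011) and the CCT subunit Cct3 2.19-fold (adjusted p = 0.0356). Pfdn5 kept its call in all 9 omissions, and Cct3 kept it only without fresh replicate 3 or cryopreservation-2 replicate 3. In the list of tubulin modification and mRNA autoregulation, edgeR called 0 of 18 in cryopreservation-2 against fresh. The unadjusted p was under 0.05 for 3 of them and for 3817 of all 17545 genes. DESeq2 called 1 and limma 2. Ttc5, which reads the residues MREI and MREC, was at 3.89 CPM in fresh and 3.45 in cryopreservation-2 (log2 -0.17, SE 0.39, adjusted p = 0.857). After cryopreservation-1 Ttc5 was at 1.99 CPM and was not called against fresh by edgeR (log2 -0.97, SE 0.39, unadjusted p = 0.0316). In cryopreservation-2 against cryopreservation-1 its log2 fold change was 0.79 (SE 0.39, adjusted p = 0.303). In the list of microtubule dynamics and severing edgeR called 0 of 25 in cryopreservation-2 against fresh. The unadjusted p was under 0.05 for 4 of them, beside the 3817 of all genes. DESeq2 called 1 and limma 0.

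Over the 9 libraries, Pearson correlations of log2 CPM among the 5 called beta genes ran from 0.796 (Tubb5 with Tubb4b) to 0.96 (Tubb2a with Tubb2b). Tuba1a, which was not called, ran from 0.752 to 0.896 against the same 5. Tubb3 ran from -0.529 to -0.274 against them. The libraries share groups and normalization, so these values describe the 9 libraries only. Tubb2a shares 35.9% of its windows of 100 bases with Tubb2b, and Tubb2b 26.1% with Tubb2a. The part of shared reads in their value of 0.96 was not tested. Among 8072 genes with a mean of at least 5 CPM that are not tubulins, those most like Tubb3 were Ambra1 (0.99), an autophagy regulator, Extl3 (0.988), an enzyme of heparan sulfate synthesis, and Pitpnm2 (0.985). Each was lowest in cryopreservation-2 replicate 1, as Tubb3 was, with Ambra1 at 2.43 CPM there and 10.1 and 12.9 CPM in the other two libraries of the group. Those most like Tuba1c were Calr4 (0.964), Eif4a3 (0.957), a core factor of the exon junction complex, and Bsg (0.943), which encodes basigin.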

How the data were processed

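The 9 libraries were poly(A)-selected and strand-marked by dUTP, per the labels' protocols. The submitters' processing notes name cutadapt 1.9, HISAT2 2.0.4, StringTie 1.3.4d and GRCm38. How reads were counted, on which strand, against which annotation release, and what was done with reads that map to several places is not given in the sources used here. Whole-number read counts per gene, not normalized, were deposited by the authors and used for all tests. FPKM values, also deposited by the authors, were used for levels between genes and for shares.

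Genes were filtered with filterByExpr (minimum count 10, minimum total 15), library sizes were scaled by TMM, and all 9 libraries entered 1 edgeR quasi-likelihood fit with 1 coefficient per group. P-values were adjusted by the Benjamini-Hochberg method over 17545 genes, and a gene was called at an adjusted p under 0.05. The software was edgeR 4.0.16, DESeq2 1.42.0 and limma 3.58.1 in R 4.3.3. The fit was tested on simulated data. Sequence sharing was read from exact windows of 50, 100 and 150 bases in GENCODE M21 transcripts.

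Whether replicates are separate animals or pools is not stated in the labels, so the p-values reflect the spread among these samples alone, and that spread may be technical. Between libraries of 1 group the chi-square of the counts per degree of freedom was at least 85.8, so none was the same library sequenced again. Whether any were made from the same RNA cannot be told from this value. Same-numbered libraries of fresh and cryopreservation-1 deviated together (r from 0.283 to 0.534), and those of cryopreservation-2 did not pair with either (r from -0.511 to 0.179). Libraries with different numbers deviated together too: 6 of 18 such pairs were over 0.1, the highest at 0.498. Fresh replicate 3 and cryopreservation-1 replicate 3 (0.534 with each other) both deviated with cryopreservation-2 replicate 1 (0.392 and 0.498). Each of these libraries had the fewest genes of at least 10 counts in its group. They are also the libraries in which Gm17383 had counts and B020010K11Rik had 0. A block by replicate number does not join all of them. The labels do not state that the numbers pair samples, so a pairing of fresh with cryopreservation-1 rests on these correlations alone. The 10 genes and the context and marker lists were chosen with earlier results of these data known. All 10 genes are named, with the called genes of each list and the 3 most similar genes for Tubb3 and Tuba1c. Alternatives were RLE factors, DESeq2, limma on log2(FPKM + 1) and log2(FPKM + 0.1), other filters, GC content and length offsets, a replicate block, fits of 2 groups and omission of each library. One sequence stretch of the alpha genes is not reported here.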

Additional observations from a re-analysis of the deposited data

How the results depend on the processing

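Of the 30 tubulin log2 fold changes, 5 were called in cryopreservation-2 against fresh and 1 against cryopreservation-1, and no called value changed direction under an alternative. Across alternatives, 525 tubulin values kept their direction and side of the threshold, 33 lost and 6 gained a call, and 33 changed sign, none of them called. The call on Tubb2a against fresh passed under each alternative run. For the numbers of genes called, the causes of the differences between tools were not tested. Counts limited only Tubb4a, which was at 0 in 2 libraries.

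Leaving out 1 library at a time gave 1 to 5 tubulin calls and 231 to 786 gene calls in cryopreservation-2 against fresh (5 and 944 in all), 0 to 1 and 15 to 480 against cryopreservation-1 (1 and 483), and 1 to 3 and 116 to 469 for any difference between the groups (3 and 619). In cryopreservation-1 against fresh it gave 0 tubulin and 0 to 1 gene calls.

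Genes called in cryopreservation-2 against fresh numbered 2447 with DESeq2, 1792 with limma on log2(FPKM + 1), 1654 on log2(FPKM + 0.1), 1688 with a mean FPKM of at least 1, 1418 with GC content and length offsets, 429 with only those groups fitted and 194 without the library of each group with the fewest genes. The last had 3 tubulin calls. Of the calls, 59.1% were higher in the reported edgeR fit, and 80.7%, 78.8% and 74% in the limma fits and 82.1% with only those groups. Against cryopreservation-1 the numbers were 1868 (DESeq2), 1175, 1010 and 1271 (limma, same order), 889 (offsets) and 0 (fewest genes), with 2 tubulin calls, Tubb2a and Tubb2b, in DESeq2, limma on log2(FPKM + 1), limma with the FPKM filter and the offsets, and 0 without the libraries with the fewest genes. There 54.5% were higher in the reported fit and 73.3%, 67.7% and 62.5% with limma. For any difference they were 2218, 1304, 1226, 1327, 1015 and 49, with 5 tubulin calls in DESeq2, limma on log2(FPKM + 1) and limma with the FPKM filter, 6 with offsets and 1 without the libraries with the fewest genes. For cryopreservation-1 against fresh DESeq2 called 43 and the fit of those groups alone 1.

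With the replicate number as a block, 3 tubulins (Tubb2a, Tubb2b and Tubb6) and 500 genes, 70.4% of them higher, passed in cryopreservation-2 against fresh. Tubb5 (adjusted p = 0.0653) and Tubb4b (0.0627) did not, and the numbers do not pair those 2 groups. Against cryopreservation-1 230 genes passed, 65.2% of them higher. For any difference 1 tubulin and 282 genes passed, and the block changed no other count by over 1.5 times. Only in fresh against cryopreservation-1 did every same-numbered pair deviate together, and 0 genes passed there with the block.

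The values that changed sign were all near 0 or of Tubb4a, in cryopreservation-1 against fresh unless stated. Tubb3 was at -0.0239 with RLE factors and with DESeq2, -0.0129 without the filter, -0.025 with only those groups, -0.181 with offsets and -0.188 with block and offsets. Tubb4a was at -0.029 with the block, -0.0182 with offsets and -0.288 with both. With offsets, and with block and offsets, Tuba1a was at -0.103 and -0.113, Tuba1b at -0.104 and -0.105, and Tuba1c at -0.0691 and -0.0668. Leaving out 1 library gave ranges of -0.238 to 0.155 (Tubb3), -1.38 to 0.824 (Tubb4a), -0.137 to 0.296 (Tuba1a), -0.134 to 0.296 (Tuba1b) and -0.0868 to 0.357 (Tuba1c), and for Tuba1c -0.0356 to 0.446 in cryopreservation-2 against fresh and -0.145 to 0.336 against cryopreservation-1. The Tubb3 share in fresh was 76.7% from CPM per kb of transcript and 80.5% from FPKM.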
